A study of Rattus norvegicus with 4 samples.

Results

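The tubulins are the proteins that build microtubules, and their genes are described here in the adrenal medulla of rats after 2 h of immobilization. Chromaffin cells of the medulla keep adrenaline and noradrenaline in granules until they are released. Members were all probe sets (sets of oligonucleotides read together as 1 value) whose platform annotation names a single gene with a symbol made of Tuba or Tubb, a number and an optional letter. The rule found 10 genes of 14217 with a probe set of their own, in 15 probe sets of 31042: 2 probe sets for 2 alpha tubulin genes and 13 for 8 beta tubulin genes. A further 3 probe sets that name a tubulin together with another gene were not used, among them the one shared by Tuba1a, Tuba1b and Tuba1c. Total RNA was hybridised to 4 single-colour arrays, 2 from rats immobilized for 2 h and 2 from unstressed rats. No strain, age or sex, and no drug or gene alteration in either group, is named in the labels. They also leave unsaid when the tissue was taken, and whether an array holds 1 animal or a pool, so a p-value here covers the variation among 4 arrays, part of which may be technical. The family was chosen by the intensities of this same comparison, in which Tubb6 and Tuba4a had stood high, so the tubulin values are given as a description without p-values. With 2 arrays in each group, their number limits the precision of every value.

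Alpha and beta tubulin pair into dimers, and the dimers join end to end into the hollow filaments called microtubules. Mammals have several genes for each, the isotypes, whose proteins differ most in their C-terminal tails, the part that faces motors and other microtubule binding proteins. Microtubules in chromaffin cells are tracks along which granules move towards the cell surface. Cells also adjust tubulin mRNA to the amount of free dimer, by decay of tubulin mRNA during its own translation.

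Tubb6 had the largest difference of the 15 probe sets. Tubb6 encodes the class V beta tubulin, whose overproduction in hamster cells disrupts the microtubule network. Its tested probe set, 1376100_at, read 10548 and 12189 on the immobilized arrays, against 857 and 1001 on the unstressed arrays. Both immobilized readings lay far above both unstressed ones. The means were 11368 ± 1160 in immobilized rats and 929 ± 102 in unstressed rats (SD, n = 2 each), a log2 change of 3.59 ± 0.16 (SE of the limma fit, 95% interval 3.21 to 3.98), or 12.1-fold higher. All log2 changes are differences of log2(intensity + 16), immobilized minus unstressed. The second Tubb6 probe set, 1394144_at, was dim, at 285 and 186 in immobilized rats and 104 and 111 in unstressed rats. Of these 4 readings, 3 lie within the 2.18 to 257 read by the array's 27 control probe sets for Bacillus transcripts, so it gives no firm size for the difference.

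Tuba4a stood next. It encodes an alpha tubulin isotype that, unlike most, is made without the terminal tyrosine. It read 9124 and 8377 in immobilized rats, against 1784 and 1998 in unstressed rats. The groups did not overlap, and the 2 arrays of each group lay close together. The means were 8751 ± 528 in immobilized rats and 1891 ± 151 in unstressed rats (SD, n = 2 each), a log2 change of 2.20 ± 0.14 (95% interval 1.87 to 2.54), or 4.60-fold higher. It was the only alpha tubulin with a tested probe set.

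Tubb3, the class III beta tubulin used as a marker of neurons, had 12957 and 12827 in immobilized rats, against 6676 and 5916 in unstressed rats, by probe set 1371618_s_at. The groups did not overlap, and the log2 change was 1.03 ± 0.12, or 2.05-fold higher. The other Tubb3 probe set, 1369901_at, went the opposite way by -0.27, with overlapping readings of 344 and 203 in immobilized rats and 254 and 408 in unstressed rats, of which 2 of 4 lie within the control range. Probe sets whose name ends in s_at or x_at are marked by the manufacturer as able to match more than 1 transcript, and tubulin isotypes are close in sequence, so part of such a reading may come from another isotype.

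Tubb4b and Tubb2a were also higher in immobilized rats, by less. Tubb4b, a widely made isotype that is also found in cilia, read 28906 and 26686 in immobilized rats, against 15611 and 16202 in unstressed rats, a log2 change of 0.80 ± 0.12, or 1.75-fold. Tubb2a, abundant in neurons, read 27124 and 25093 in immobilized rats, against 17951 and 16838 in unstressed rats, a log2 change of 0.59 ± 0.13, or 1.5-fold. For both genes the lower immobilized reading stood above the higher unstressed one.

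Tubb2b, another neuronal isotype, read 7692 and 6704 in immobilized rats, against 6862 and 3505 in unstressed rats. The unstressed arrays differed from each other by 0.97 on the log2 scale and the groups overlapped, and its log2 change was 0.55 ± 0.29 (95% interval -0.15 to 1.24). It was 1.03 without unstressed 1 and 0.07 without unstressed 2. Tubb4a, the isotype of brain and of the myelinating cells of the brain, had 3 probe sets with log2 changes of 0.45, 0.45 and 0.50, of which 2 share the accession they were designed from. The x_at probe set 1393635_x_at read 5566 and 4306 in immobilized rats, against 4098 and 3105 in unstressed rats. The groups did not overlap at the x_at probe sets, but did at 1384927_at, where immobilized 1 read 3235 and immobilized 2 read 1756. Without 1 array in turn 1384927_at ranged from 0.02 (without immobilized 1) to 0.89 (without immobilized 2), 1393635_x_at from 0.26 to 0.65 and 1398624_x_at from 0.31 to 0.68. All 3 are probe sets for 1 gene and not independent measures.

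Tubb5, the main beta tubulin of most tissues, differed least. Its probe set 1387892_at read 20768 and 18607 in immobilized rats, against 20882 and 17944 in unstressed rats, a log2 change of 0.02 ± 0.14 (95% interval -0.31 to 0.35). The probe set 1370290_at read 13223 and 11683 in immobilized rats, against 14970 and 13934 in unstressed rats, a log2 change of -0.22 ± 0.13 (95% interval -0.52 to 0.09). That was the only tested tubulin probe set whose change lay below 0 and whose immobilized readings both lay below the unstressed ones. Both intervals include 0, which does not show that Tubb5 was unchanged. The Tubb4b, Tubb2a and Tubb5 probe sets lay between percentiles 95.32 and 97.81 of mean level, and whether such bright readings understate a difference was not tested.

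**Figure D1:**
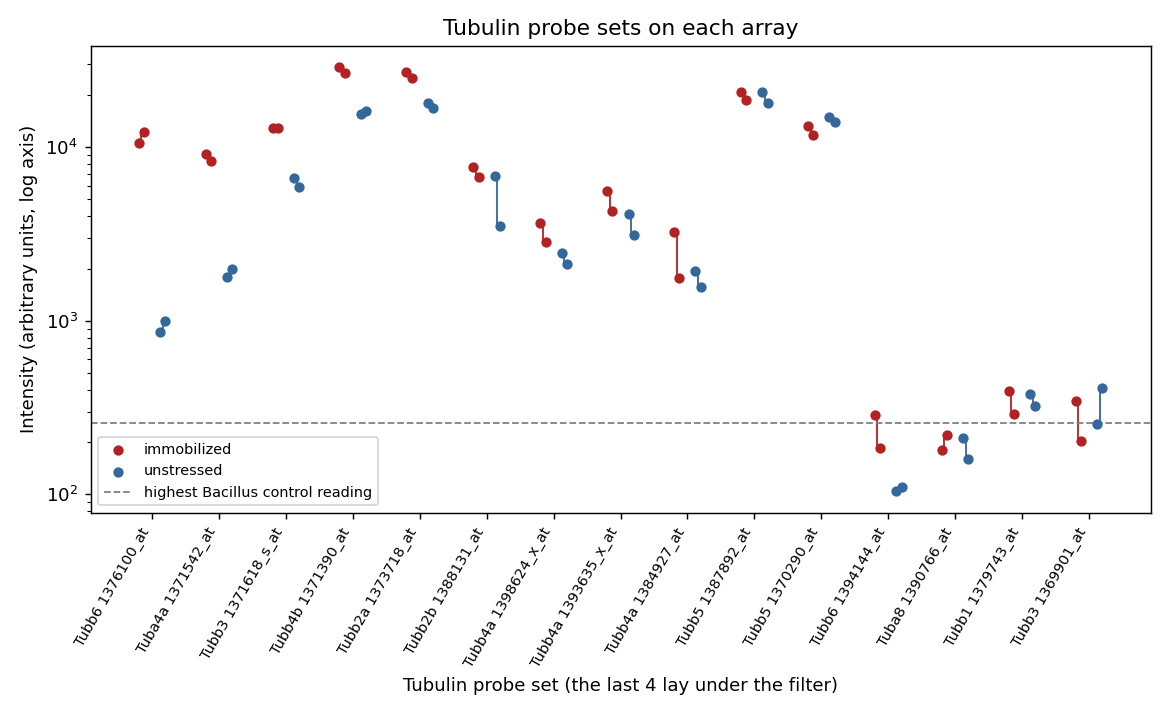
Intensity of each tubulin probe set on each array, on a log axis, with immobilized arrays in red to the left of unstressed arrays in blue, a line joining the 2 arrays of a group, and a dashed line at the highest Bacillus control reading of 257. The immobilized points of Tubb6 1376100_at (10548 and 12189) and Tuba4a (9124 and 8377) stand clear of the unstressed ones, while both Tubb5 probe sets nearly coincide.

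Tuba8 and Tubb1 were dim. Tuba8, a divergent alpha tubulin, read 181 and 219 in immobilized rats, against 211 and 161 in unstressed rats, all 4 within the control range. Tubb1, the beta tubulin of platelets and their precursors, read 394 and 291 in immobilized rats, against 381 and 324 in unstressed rats, and the groups overlapped. With the dim probe sets of Tubb6 and Tubb3 these make 4 probe sets under the filter level, an intensity of about 543.8 at the 40th percentile of mean log2 values, below which no probe set was tested.

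The other 11 probe sets, for 8 genes, were tested in the limma fit over all 18625 probe sets above that level. The threshold was an adjusted p (Benjamini-Hochberg) of 0.05 in that fit. Of the 11, 5 were past it upward (Tubb6, Tuba4a, Tubb3, Tubb4b and Tubb2a) and 0 downward, where 11.7% of all tested probe sets were past it upward and 19.4% downward. At an unadjusted p under 0.05 in limma there were 6 upward and 0 downward. Over the 10320 genes tested, each by its brightest probe set, 1557 were upward and 3070 downward at that level. Immobilized readings lay above all unstressed readings at 7 of the 11 and below them at 1, against 25.5% and 42.4% of all tested probe sets. The median log2 change was 0.55 over the 11 and -0.12 over all tested probe sets. The members that passed the filter are the brighter ones, and the family was proposed from this comparison, so these counts and medians are a description and nothing is read from them. The number past the threshold was 8 without unstressed 1, and 4 without any 1 of the other 3 arrays. Of all probe sets past the threshold in either direction 37.6% were higher in immobilized rats, and 53.2% once arrays were centred on their medians, which moved the median of all probe sets to 0.02 and that of the tubulins to 0.69. In such tissue samples fewer cells of a type and less RNA per cell cannot be told apart.

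**Figure D2:**
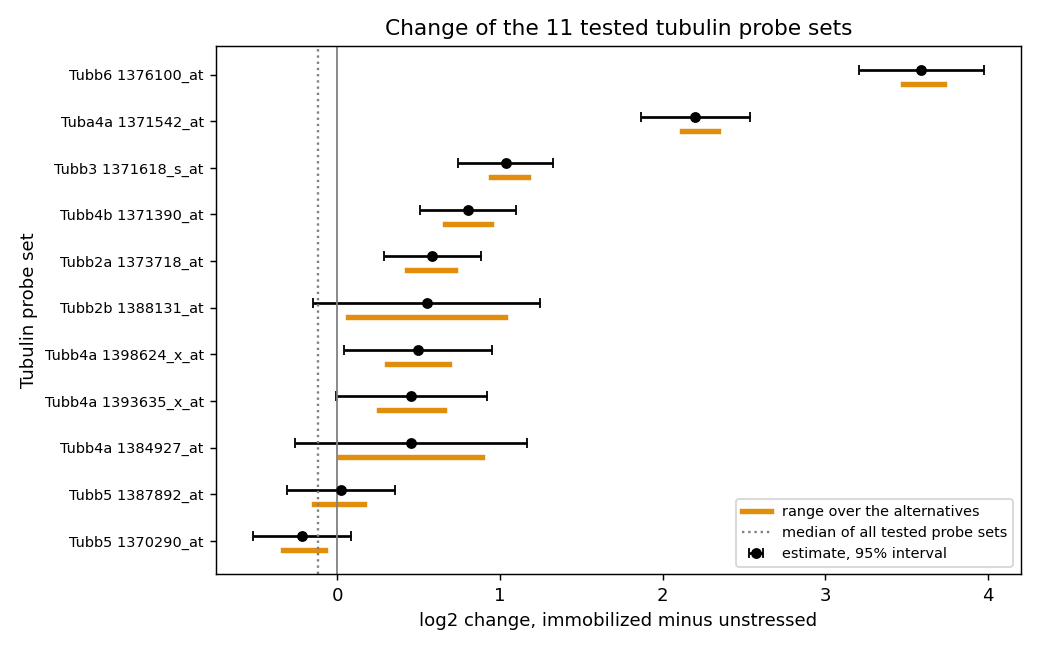
Log2 change, immobilized minus unstressed, of the 11 tested tubulin probe sets: points and bars are the estimate and its 95% interval, the orange lines the range over 12 alternative settings, and the dotted line the median of all tested probe sets (-0.12). Tubb6 (3.59) and Tuba4a (2.20) stand apart from the other members, which range from -0.22 to 1.03.

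The promoters of 5 tubulin genes are shown to set their sequences beside these values: Tubb6, Tuba4a and Tubb3, which differed most, Tubb2a, which holds the only full CRE described below, and Tubb5, which differed least. They are the 250 bases before the start of each gene, from RefSeq (GRCr8), in which all 10 tubulin genes were found. Capitals mark every match on either strand to 7 motifs: the cAMP response element CRE (TGACGTCA), its short form (TGACG), the AP-1 site (TGANTCA), the EGR site (GCGNGGGCG), the CCAAT box (CCAAT), the GC box (GGGCGG) and the TATA box core (TATAA). The short form lies within the full CRE, and an EGR match can overlap a GC box.
Tubb6 (chr18:63213037-63213286, plus strand): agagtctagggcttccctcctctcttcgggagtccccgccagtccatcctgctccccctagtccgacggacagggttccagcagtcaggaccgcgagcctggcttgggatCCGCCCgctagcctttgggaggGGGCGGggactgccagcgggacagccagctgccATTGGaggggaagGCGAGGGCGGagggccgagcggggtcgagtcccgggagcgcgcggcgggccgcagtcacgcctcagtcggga
Tuba4a (chr9:84162585-84162834, minus strand): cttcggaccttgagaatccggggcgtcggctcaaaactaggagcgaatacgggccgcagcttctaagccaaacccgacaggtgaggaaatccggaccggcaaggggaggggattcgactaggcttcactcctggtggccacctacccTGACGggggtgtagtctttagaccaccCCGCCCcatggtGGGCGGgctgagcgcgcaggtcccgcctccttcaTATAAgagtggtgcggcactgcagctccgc
Tubb3 (chr19:68365437-68365686, plus strand): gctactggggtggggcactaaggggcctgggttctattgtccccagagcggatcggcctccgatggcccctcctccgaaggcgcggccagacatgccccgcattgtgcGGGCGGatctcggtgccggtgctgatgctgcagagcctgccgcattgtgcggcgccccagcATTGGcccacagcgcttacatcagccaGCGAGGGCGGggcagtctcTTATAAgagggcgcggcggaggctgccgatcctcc
Tubb2a (chr17:31001936-31002185, plus strand): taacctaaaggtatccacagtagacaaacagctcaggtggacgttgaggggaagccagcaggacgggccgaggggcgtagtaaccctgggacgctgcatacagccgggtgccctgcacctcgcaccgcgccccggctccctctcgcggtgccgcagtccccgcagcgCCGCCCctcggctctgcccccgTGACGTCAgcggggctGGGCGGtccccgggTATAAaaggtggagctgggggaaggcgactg
Tubb5 (chr20:2917327-2917576, plus strand): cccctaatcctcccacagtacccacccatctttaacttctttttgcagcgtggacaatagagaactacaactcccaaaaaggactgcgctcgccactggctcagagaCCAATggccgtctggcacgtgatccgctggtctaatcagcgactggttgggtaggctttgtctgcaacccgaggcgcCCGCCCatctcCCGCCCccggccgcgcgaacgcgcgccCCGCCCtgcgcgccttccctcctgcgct

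The full CRE, the element bound by CREB, was matched before 1 of the 10 tubulin genes, Tubb2a, at bases -61 to -54 from the start, and before 1.7% of all 27457 genes. The short form was matched before 4 tubulin genes, Tuba4a, Tubb2a, Tubb2b and Tubb4a, and before 19% of all genes. No AP-1 match lay before any of the 10, against 6.36% of all genes, which says only that these letters are not in this window. The EGR site was matched before 3, in the form GCGAGGGCG each time: Tubb6 at -72 to -64, Tubb3 at -54 to -46 and Tubb4b at -50 to -42, against 4.53% of all genes. Each of these overlaps a GC box, and GC boxes lay before 6 of the 10, against 32.4% of all genes. A TATAA match lay before 4 tubulin genes, Tuba4a, Tubb2a, Tubb3 and Tubb4b, each between -35 and -23, against 24.1% of all genes, and none lay before Tubb6 or Tubb5. CCAAT boxes were matched before 6, with 4 before Tubb4b, against 34.3% of all genes. The 10 tubulin promoters hold 52.0% (Tubb4b) to 71.2% (Tubb6) G and C. A match is a run of letters and not a measured site, and no reading of binding was made in these samples.

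**Figure D3:**
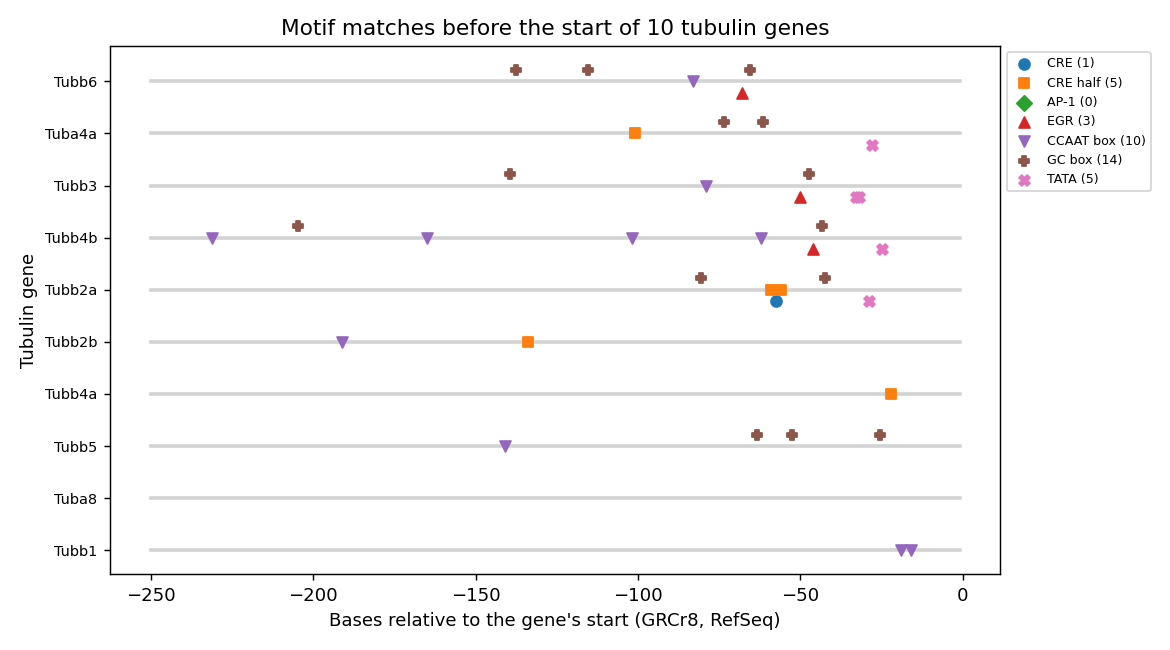
Matches to the 7 motifs in the 250 bases before the start of each of the 10 tubulin genes (horizontal axis, bases from the start), with genes ordered from the largest log2 change at the top, Tubb6, to the tested gene with the smallest, Tubb5, and the 2 untested genes Tuba8 and Tubb1 below. The legend gives the number of matches to each motif, and the single full CRE stands in the Tubb2a row.

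The genes next to the tubulins on the chromosomes were read for comparison. Neighbours were the nearest protein-coding gene on each side in the GRCr8 gene order, a choice made after the tubulin values were seen. Of 13 with a tested probe set, 0 were past the threshold upward and 5 downward in limma. Of all 10320 genes, each represented by its brightest probe set, 11.2% were past it upward and 21.8% downward. At an unadjusted p under 0.05 in limma the 13 had 0 and 5, and the 10320 genes had 1557 and 3070. Beside Tubb6 lie Cidea, a lipid droplet protein gene, with a log2 change of 0.14 ± 0.25, and Afg3l2, a mitochondrial protease gene, with -0.41 ± 0.24, and neither passed. Beside Tuba4a lie Dnajb2, a co-chaperone gene, with 0.07 ± 0.12, which did not pass, and the kinase gene Stk16, which fell by 0.41 ± 0.13 (adjusted p = 0.0471 in limma). Stk16 was not past the threshold in 8 of 13 alternatives. The other 4 that fell were Pex26 and Usp18 (-1.03), both beside Tuba8, Def8 (-0.99) beside Tubb3 and Mdc1 (-1.65) beside Tubb5. Pex26 read 70.6 and 523 in immobilized rats, against 1477 and 1407 in unstressed rats, and the lower immobilized reading lies within the control range. Its log2 change of -2.75 ± 0.75 was -1.44 without immobilized 1 and -4.07 without immobilized 2, so its size is not settled, and it did not pass without the filter or without the trend. Usp18 (-0.95) and Def8 (-0.85) did not pass without immobilized 2. Between Tubb2a and Tubb2b the gene order holds Tubb2al1, which no probe set names.

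The genes with the most similar values to Tubb6 over the 4 arrays were Ezh2, Osgin2, Pde10a, Cdkl4 and Pvr. Likeness was the Euclidean distance between log2 values, each gene centred on its own mean, over 4 arrays and 10319 other genes. Ezh2, a histone methyltransferase gene, lay nearest at 0.16, with readings of 9319 and 11087 in immobilized rats and 832 and 834 in unstressed rats. Pde10a, a cyclic nucleotide phosphodiesterase gene, lay at 0.22 with 16457 and 15421 in immobilized rats and 1211 and 1347 in unstressed rats. For Tuba4a the nearest were Hps4, Inhbb, Parg, Dusp1 and Fzd4, at distances of 0.10 to 0.17. Dusp1, a MAP kinase phosphatase gene, read 23535 and 24130 in immobilized rats and 4825 and 5990 in unstressed rats. With 2 arrays in each group such likeness is mostly likeness of the log2 change.

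Beyond the tubulins, 9 lists of other genes of the microtubule system and of the other filaments were examined, each gene by its brightest probe set. Over all 10320 genes tested, 11.2% rose and 21.8% fell, with a median log2 change of -0.14. At an unadjusted p under 0.05 in limma, 1557 of the 10320 were higher in immobilized rats and 3070 lower. In the lists "rose" and "fell" mean past the threshold of the same fit.

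New tubulin is folded by the CCT chaperonin and by cofactors that assemble the dimer. The list of folding genes also holds Ttc5 and Tbcel, which act on tubulin or its mRNA in other ways. Of its 22 tested genes 1 rose and 2 fell, with a median log2 change of 0.09, and the 2 that fell were Ttc5 and Tbcel. Ttc5, which in human cells recognises tubulin as it is made and triggers the decay of its mRNA, read 1630 and 1627 in immobilized rats, against 3670 and 3286 in unstressed rats. It fell by 1.09 ± 0.16 (adjusted p = 0.00403 in limma), and was no longer past the threshold without immobilized 2 (-1.08, adjusted p = 0.0514). Tbcel, which destabilises tubulin, read 4158 and 4107 in immobilized rats, against 8424 and 8713 in unstressed rats, and its log2 change was -1.05 ± 0.12, past the threshold in all 12 alternatives. Pfdn2, a prefoldin subunit gene, rose by 0.61 ± 0.17, which was lost without unstressed 1 (0.39), immobilized 1 (0.65) or immobilized 2 (0.57), without the filter, without the trend and with its probe sets averaged (0.33), and its other tested probe set had a change of 0.06. Tbcc and Arl2, at 0.52 and 0.44, did not pass. The 8 CCT subunit genes Tcp1 and Cct2 to Cct8 had no member past the threshold, and Cct3 was highest among them at 0.30.

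The list of other tubulins and of nucleation, which holds gamma tubulin and the proteins that seed new microtubules, had 0 rises and 4 falls among 10 tested genes (0 and 5 at an unadjusted p under 0.05 in limma), with a median of -0.40. Tubgcp6, a subunit of the gamma tubulin ring complex, read 1771 and 1395 in immobilized rats, against 3180 and 3046 in unstressed rats, a log2 change of -0.98 ± 0.19. Pcnt, the centrosome scaffold pericentrin, had -0.87 ± 0.18. Mzt1 and Tubgcp2, also of the ring complex, had -0.69 ± 0.20 and -0.46 ± 0.13. The number of falls was 2 without unstressed 2, 1 without immobilized 1 and 0 without immobilized 2, and it was 2 after quantile normalization or median centring. Tubgcp6 was the 1 that stayed past the threshold without immobilized 1. Mzt1 and Tubgcp2 were the 2 that did not pass after quantile normalization, after median centring or without unstressed 2, and Tubgcp2 also did not pass without the filter or the trend.

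Enzymes that modify tubulin tails and lysines had 0 rises and 3 falls among 13 tested genes (0 and 4 at an unadjusted p under 0.05 in limma), with a median of -0.31. Svbp, the partner of the vasohibin enzymes that remove the terminal tyrosine, read 2502 and 2902 in immobilized rats, against 6692 and 5879 in unstressed rats. It fell by 1.21 ± 0.15 (adjusted p = 0.00203 in limma) and was past the threshold in all 12 alternatives. Hdac6, a tubulin deacetylase gene, had -0.62 ± 0.14 and Ttll11, a polyglutamylase gene, -0.84 ± 0.22. With immobilized 1 or immobilized 2 left out the list had 1 fall, Svbp, as Hdac6 and Ttll11 did not pass there. Ttll11 also did not pass after quantile normalization (-0.72), after median centring (-0.70), without the filter or without unstressed 2 (-0.79).

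Of 25 tested genes for proteins that bind microtubules or their ends 4 rose and 3 fell, with a median of -0.15. Dclk1, a doublecortin-like kinase gene, read 7929 and 8693 in immobilized rats, against 2108 and 1672 in unstressed rats, and rose by 2.14 ± 0.16. Its 3 tested probe sets ranged from 0.40 to 2.14. Map1lc3a, first known as a light chain of microtubule associated proteins and better known in autophagy, read 32353 and 29195 in immobilized rats, against 10541 and 8405 in unstressed rats, and rose by 1.71 ± 0.15. Map1b, a protein of growing axons, rose by 1.22 ± 0.24 and Mapre1, the plus-end protein EB1, by 0.85 ± 0.12. Clasp2, another plus-end protein, fell by 1.03 ± 0.13, Mid1 by 1.10 ± 0.26 and Camsap3, a minus-end protein, by 0.94 ± 0.25. Without immobilized 1 or immobilized 2 the list had 3 rises and 1 fall: Map1b (1.07 and 1.37), Mid1 (-0.90 and -1.30) and Camsap3 (-1.09 and -0.79) did not pass in either case. Without unstressed 2 it had 4 rises and 5 falls, Mid1 (-0.87) no longer among them, and Camsap3 also did not pass without unstressed 1 (-0.68).

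In the list of destabilising and severing proteins 1 of 9 tested genes rose and 3 fell, with a median of -0.01. The gene that rose, Mtus1, encodes a microtubule binding protein that is not itself a destabilising or severing one. This 1 rise is therefore not of a destabilising or severing gene. Spast, the severing enzyme spastin, had 2430 and 2782 in immobilized rats, against 4453 and 5439 in unstressed rats, a log2 change of -0.92 ± 0.16. Kif2a, a motor that takes dimers off microtubule ends, had -0.74 ± 0.15 and Katna1, the severing subunit of katanin, -0.69 ± 0.18, while Mtus1 had 0.60 ± 0.15. Leaving out immobilized 1 or immobilized 2 gave 0 rises and 0 falls in this list, with no change of direction in these 4 genes. It had 3 rises without unstressed 1, with Mtus1 (0.43, adjusted p = 0.0866 in limma) not among them. Mtus1 did not pass without the trend either, nor Katna1 after quantile normalization or median centring or without unstressed 2.

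The counts for motor genes stand beside the 11.2% of all genes tested that rose and the 21.8% that fell. Of 21 tested kinesin genes 3 rose and 2 fell, with a median of -0.05. Kif20a, a motor of cell division, rose by 1.09 ± 0.20, Kif21a by 0.94 ± 0.16 and Kif5b, the heavy chain of conventional kinesin, by 0.49 ± 0.12. Klc4, a light chain, fell by 1.01 ± 0.15 and Kif3b by 0.73 ± 0.14. Without immobilized 1 there were 0 rises and 0 falls, and without immobilized 2 there were 0 rises and 1 fall, of Klc4. Kif5b also did not pass without the trend, without unstressed 2 (0.43) or with its probe sets averaged (0.39). Of 21 genes of dynein and its partners 2 rose and 2 fell, with a median of -0.01. Nde1 and Ndel1 encode related proteins that regulate dynein together with Lis1. Nde1 read 392 and 352 in immobilized rats, against 1065 and 1223 in unstressed rats, a log2 change of -1.58 ± 0.23. Ndel1 read 16023 and 15766 in immobilized rats, against 6736 and 6021 in unstressed rats, a log2 change of 1.32 ± 0.12, past the threshold in all 12 alternatives. Pafah1b1, the gene of Lis1, rose by 0.70 ± 0.13 by its brighter probe set, while its other tested probe set had -0.77, so its direction is uncertain. Dync1li2, a dynein light intermediate chain gene, fell by 0.55 ± 0.12, and did not pass after median centring (-0.41) or without immobilized 1 or immobilized 2. The dynein list had 1 rise and 1 fall without immobilized 1 and 1 rise and 0 falls without immobilized 2, where Nde1 had -1.50 (adjusted p = 0.0502 in limma).

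**Figure D4:**
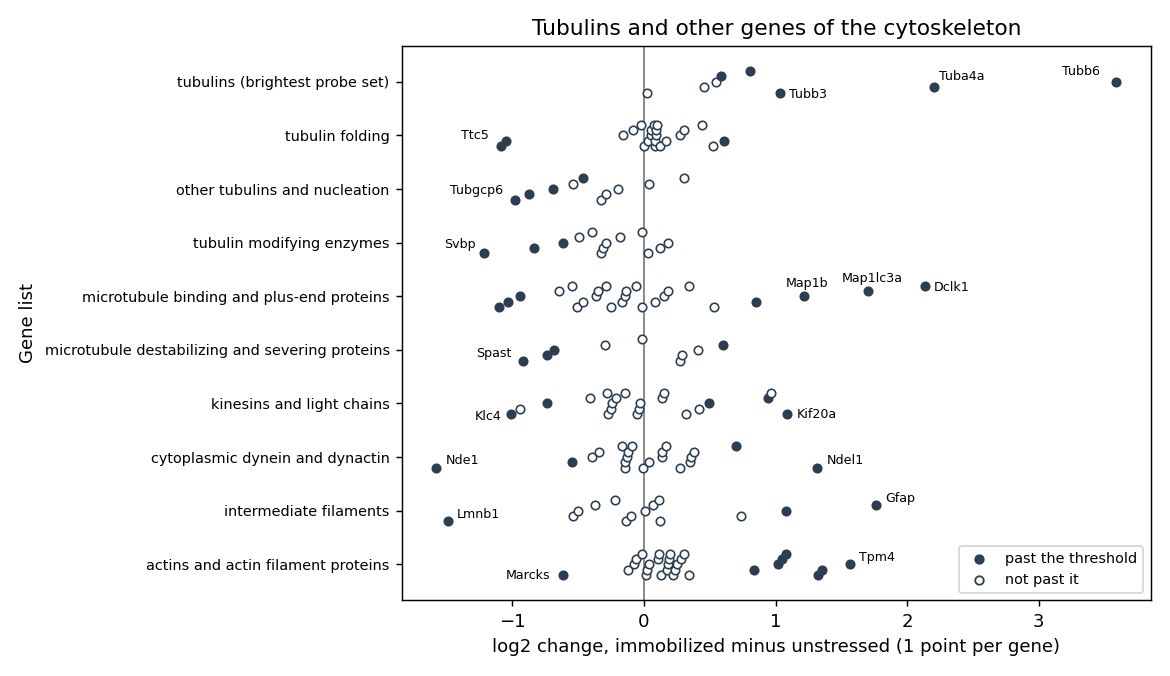
Log2 change, immobilized minus unstressed, of the 8 tubulin genes with a tested probe set and of each tested gene in the 9 lists, 1 point per gene by its brightest probe set. Filled points are past the limma threshold and open points are not. Tubb6 (3.59) and Tuba4a (2.20) lie furthest right. The nucleation and modifying enzyme lists have filled points on the left side alone, 4 of 10 and 3 of 13 genes. Over all genes tested 21.8% fell and 11.2% rose, so lists this short can lack rises and nothing is read from that.

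The other filament systems were set beside the tubulins. Of 28 tested genes for actins and actin filament proteins 7 rose and 1 fell (9 and 1 at an unadjusted p under 0.05 in limma), with a median of 0.19. After median centring 9 rose. Tpm4, a tropomyosin gene, read 23394 and 23926 in immobilized rats, against 7744 and 8266 in unstressed rats, and rose by 1.56 ± 0.12. Acta2, smooth muscle actin, rose by 1.36 ± 0.14, Cnn2, a calponin, by 1.33 ± 0.13, Zyx, a focal adhesion protein, by 1.08 ± 0.14, Tpm2 by 1.05 ± 0.16 and Flna, the crosslinker filamin A, by 1.02 ± 0.12. The others past the threshold were Tagln (0.84) and Marcks, which fell by 0.61. Tpm2 did not pass without immobilized 2 (0.97), and the rises ranged from 6 to 8 over the 4 fits that leave out an array. The list had 0 falls without immobilized 1 or immobilized 2, and 0 with median centring. Of 14 tested intermediate filament genes 2 rose and 1 fell, with a median of -0.05. Gfap, the filament of glia, rose by 1.76 ± 0.22 and Nes, nestin, by 1.08 ± 0.31, while Lmnb1, a nuclear lamin, had -1.49 ± 0.31. Nes did not pass without unstressed 2, immobilized 1 or immobilized 2 (0.70, 1.29 and 0.86) or without the filter, nor Lmnb1 without immobilized 2 (-1.15). The list had 5 rises without unstressed 1.

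Markers of the cells the tissue holds were read on the same arrays. Of 7 chromaffin markers, including Th, Dbh, Pnmt and Chga, 0 were past the threshold in limma (0 at an unadjusted p under 0.05). Their summed intensity was 387265 and 274525 in immobilized rats, against 314280 and 289396 in unstressed rats. Their lowest reading on any array was 11584. Of 6 markers of adrenal cortex, with a lowest reading of 13924, 1 rose and 0 fell (1 and 1 at an unadjusted p under 0.05). Nr5a1 rose by 0.47 ± 0.14 but did not pass in 7 of 13 alternatives, among them every fit without unstressed 1, immobilized 1 or immobilized 2. Cyp11b1 (-0.64), Cyp11a1 (-0.35), Cyp21a1 (-0.27), Hsd3b1 (-0.24) and Star (0.07) did not pass, and the sums were 276701 and 207638 in immobilized rats, against 257132 and 292082 in unstressed rats. Cortex RNA was thus present on all 4 arrays. Of 5 tested smooth muscle and pericyte markers Acta2 alone rose. The sums of all 6 on the array were 15879 and 15316 in immobilized rats, against 11791 and 9795 in unstressed rats. Most of that difference was Acta2, at 6442 and 7240 in immobilized rats, against 2741 and 2576 in unstressed rats. Myh11 (0.31), Rgs5 (0.07), Pdgfrb (0.02) and Des (-0.22) did not pass, and the dim Cnn1 (1.21) was not tested. Of 4 tested Schwann and sustentacular cell markers Gfap rose and S100b fell by 0.59 ± 0.13, a fall that did not pass without immobilized 1 (-0.62) or immobilized 2 (-0.55), with sums of 13364 and 12055 in immobilized rats, against 13552 and 10228 in unstressed rats. Of 6 endothelial markers Kdr fell by 0.79 ± 0.20, and did not pass after median centring, without the trend or without immobilized 1 (-0.64) or immobilized 2 (-0.95). Of 8 macrophage, 6 fibroblast and 3 red blood cell markers tested 0 were past the threshold in limma (2, 0 and 0 at an unadjusted p under 0.05). Not passing does not show that these or the chromaffin markers were unchanged. Platelets hold Tubb1 and Tuba4a, but of 6 platelet markers on the array, Tubb1 among them, only Pf4 lay above the filter level. Its log2 change of 0.43 did not pass (1 platelet marker at an unadjusted p under 0.05 in limma). Those under the filter level, not tested, had negative changes: Gp9 (-1.68, with 3 readings within the control range), Itga2b (-0.74), Gp5 (-0.56), Ppbp (-0.24) and Tubb1 (-0.05). The platelet sums were 5722 and 4803 in immobilized rats, against 4992 and 4640 in unstressed rats. Most of each sum was Pf4, at 4410 and 3579 in immobilized rats and 3126 and 2778 in unstressed rats. No marker was listed at 0. The part of these cell types in the tubulin values was not tested.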

How the data were processed

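Gene expression was measured in rat adrenal medulla on 4 arrays, 2 of each group, grouped by the submitters' sample descriptions. The values the authors deposited are intensity on a linear scale, 1 for each probe set. How probes were summarised, and any build, are not given in the sources used here. All 4 columns share a trimmed mean of 2500 (2% left out at each end), so the deposited scaling was kept. Without 57 control probe sets 31042 remained, and values were turned into log2(intensity + 16). Of these, 18625 at or above the 40th percentile of mean log2 level entered a linear model (limma 3.58.1, R 4.3.3; moderated by eBayes with a trend on level). Its two-sided p-values were adjusted over all of them by Benjamini-Hochberg, with a threshold of 0.05. With 2 arrays against 2, an exact two-sided test cannot go below 0.33, so none was run. Pearson's r over tested probe sets came to 0.981 between immobilized arrays, 0.967 between unstressed arrays and 0.856 to 0.871 between groups; probe sets are not independent replicates. On simulated data with the same 18625 means it recovered 91 of 100 probe sets changed 4-fold and 30 of 100 changed 2-fold. No other probe set was changed there, while in the data 2180 were past the threshold upward and 3619 downward. The adjustment depends on how many probe sets change, so these shares do not give the power of the fit to the data.

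Genes were named from GEO's platform annotation, where 20826 probe sets have 1 symbol, 436 several and 9780 none; by Entrez identifier 20758 were found in a GRCr8 gene table, and 0 symbols changed. There were 0 unused sample columns. The members, 9 gene lists and 9 marker lists were chosen with earlier results of these data known. Genes to name were all tubulin probe sets, up to 6 members of each list past the threshold with the largest change and the 2 largest not past it (56 genes, not all printed), the 5 genes most like Tubb6 and Tuba4a, and the markers; other genes are named to complete a count. Hba-a1 was matched by synonym to Hba-a3. Other settings tried were quantile normalization, centring arrays on their medians, an offset of 1 or of 64, dropping the filter or raising it to percentile 60, a variance model with no trend or a robust one, omission of each array, and, for lists, averaging the probe sets of a gene. When an array was omitted, the one remaining in its group was taken to vary as the other group does. Motifs, neighbours and the promoter window were chosen after the tubulin values were seen. Figures were made with matplotlib 3.10.9.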

Additional observations from a re-analysis of the deposited data

How the results depend on the processing

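Every tested tubulin probe set kept its direction under the 12 alternatives except Tubb5 1387892_at, which ranged from -0.15 to 0.16. Tubb6 ranged from 3.48 to 3.73, Tuba4a from 2.12 to 2.34, Tubb3 1371618_s_at from 0.95 to 1.17 and Tubb4b from 0.66 to 0.94, each past the threshold throughout, while Tubb2a, at 0.43 to 0.72, was not past it without unstressed 2, immobilized 1 or immobilized 2. Tubulin probe sets past the threshold upward numbered 6 after quantile normalization, 7 after median centring and 4 to 8 with an array left out, and 0 were past it downward in any. Over all probe sets the counts were 2180 up and 3619 down, 2844 and 2497 after median centring, which moved the median change from -0.12 to 0.02, 2581 and 3171 after quantile normalization, and 785 to 2638 and 893 to 3800 with an array left out. Median centring gave 0 falls in the actin list, 1 in the dynein list and 2 in the nucleation list, and 3 rises in the folding list; quantile normalization gave 4, 2 and 3 for the last 3. Rises in the folding list were 0 without the filter and without the trend, and in the destabilising list 0 without the trend. Intermediate filament rises were 1 without the filter and 0 with the filter at the 60th percentile, where fewer genes were tested, and falls in the binding list were 1 there. With probe sets averaged per gene the dynein list had 1 rise. With an array left out, rises and falls ranged over 0 to 1 and 1 to 2 (folding), 0 and 0 to 5 (nucleation), 0 and 1 to 3 (modifying), 3 to 5 and 1 to 5 (binding), 0 to 3 and 0 to 3 (destabilising), 0 to 4 and 0 to 3 (kinesins), 1 to 3 and 0 to 3 (dynein), 1 to 5 and 0 to 1 (intermediate filaments) and 6 to 8 and 0 to 1 (actin). Of the tubulin probe sets and genes that are past the threshold and named, Pafah1b1 alone changed direction, at -0.033 with probe sets averaged per gene. That setting for single genes, and all settings for called genes outside the naming rule and for neighbours, were added after seeing the data. The causes were not tested. No paired analysis was possible because the labels give the arrays no numbers shared between groups. Dim probe sets, near the Bacillus controls, limit what can be said of Tuba8, Tubb1 and the second probe sets of Tubb6 and Tubb3.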
